A study of Mus musculus with 8 samples.

Results

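The 109 mouse keratin (Krt) and keratin-associated protein (Krtap) genes were examined for peaks of Mta2, Mbd3 and Zbtb7a in kidney cortex. They are every protein-coding gene whose RefSeq symbol is Krt or Krtap followed by a number, 53 Krt and 56 Krtap genes of 21631 protein-coding genes on autosomes and chromosome X. Chromatin immunoprecipitation with sequencing used antibodies against Mta2, Mbd3 or Zbtb7a, with Input chromatin beside them, in 2 mice per group and 8 libraries in all. The library titles of every group end in the same pair of numbers, so the groups may share their 2 mice and the factors are then not independent of each other. The mice were 2 months old and all carried the genotype Mta2flx/flx, and the labels name no Cre driver for these animals. The files give 1 peak list per factor for both mice, with 149855 Mta2, 134248 Mbd3 and 124616 Zbtb7a peaks on autosomes and X, so spread between mice could not be measured and values stand without SD, n or test. Library depth was not analysed here, and where no peak is listed the factor may still be present below the authors' threshold.

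Keratins form intermediate filaments from pairs of an acidic type I and a basic type II chain. Simple epithelia such as kidney tubules use Krt8 with Krt18, and Krt7 and Krt19 in ducts, whereas Krt5 and Krt14 belong to the basal layer and Krt1 and Krt10 to the upper layers of the epidermis. Hair keratins are cross-linked in the hair shaft by the sulphur-rich or glycine- and tyrosine-rich proteins of the Krtap genes. Mta2 and Mbd3 belong to NuRD, a chromatin complex that moves nucleosomes and removes histone acetyl groups and is known from both active and repressed genes, and Zbtb7a is a zinc finger factor that can recruit NuRD. The chromatin came from whole cortex, so a peak cannot be assigned to a cell type. The proximal tubule genes Lrp2, Slc34a1, Slc5a2 and Aqp1 each carried peaks of the 3 factors, with highest Mta2 folds of 47.1, 14.4, 9.07 and 41.6.

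The promoter sequences of 87 of the 109 members were in RefSeq's GRCm38.p6 table, whose coordinates are those of mm10, the build named in the submitters' processing notes. The 250 bases before the start site are shown for 3 simple epithelial keratins, for the epidermal keratin with the strongest peak, and for a basal, a hair and a Krtap gene without a peak, because their CpG content differs. Capitals mark CpG dinucleotides, and each sequence reads 5′ to 3′ along its gene's own strand.
Krt7 (chr15:101412153-101412402, plus strand): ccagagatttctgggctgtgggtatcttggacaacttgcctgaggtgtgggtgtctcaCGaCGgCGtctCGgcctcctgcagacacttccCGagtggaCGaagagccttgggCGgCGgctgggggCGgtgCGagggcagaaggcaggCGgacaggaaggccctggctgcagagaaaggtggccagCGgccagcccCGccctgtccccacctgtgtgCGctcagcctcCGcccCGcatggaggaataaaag
Krt18 (chr15:102027966-102028215, plus strand): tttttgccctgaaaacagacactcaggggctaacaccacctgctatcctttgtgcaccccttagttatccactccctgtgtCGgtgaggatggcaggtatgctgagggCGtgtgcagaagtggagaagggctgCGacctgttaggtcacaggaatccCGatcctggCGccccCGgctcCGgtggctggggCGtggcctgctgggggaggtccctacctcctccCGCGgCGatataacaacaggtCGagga
Krt8 (chr15:102004343-102004592, minus strand): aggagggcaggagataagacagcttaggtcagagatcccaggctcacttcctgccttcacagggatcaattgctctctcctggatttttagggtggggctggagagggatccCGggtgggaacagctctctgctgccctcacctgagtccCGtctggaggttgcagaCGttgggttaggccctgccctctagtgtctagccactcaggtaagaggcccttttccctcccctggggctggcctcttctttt
Krt10 (chr11:99389365-99389614, minus strand): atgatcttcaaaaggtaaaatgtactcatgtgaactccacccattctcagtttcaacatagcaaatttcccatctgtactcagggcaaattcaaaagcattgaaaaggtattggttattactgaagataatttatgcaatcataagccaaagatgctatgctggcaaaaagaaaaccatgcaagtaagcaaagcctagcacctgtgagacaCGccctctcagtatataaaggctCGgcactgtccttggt
Krt5 (chr15:101712906-101713155, minus strand): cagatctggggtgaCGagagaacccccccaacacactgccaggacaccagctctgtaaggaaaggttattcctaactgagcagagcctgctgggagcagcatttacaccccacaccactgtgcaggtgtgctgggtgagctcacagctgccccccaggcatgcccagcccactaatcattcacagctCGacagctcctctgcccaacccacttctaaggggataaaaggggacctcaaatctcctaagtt
Krt31 (chr11:100050552-100050801, minus strand): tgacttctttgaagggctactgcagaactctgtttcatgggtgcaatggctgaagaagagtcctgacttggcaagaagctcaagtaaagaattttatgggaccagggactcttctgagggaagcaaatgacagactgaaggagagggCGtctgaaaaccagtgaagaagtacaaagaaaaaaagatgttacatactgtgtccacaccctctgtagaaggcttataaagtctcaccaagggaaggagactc
Krtap3-1 (chr11:99566631-99566880, minus strand): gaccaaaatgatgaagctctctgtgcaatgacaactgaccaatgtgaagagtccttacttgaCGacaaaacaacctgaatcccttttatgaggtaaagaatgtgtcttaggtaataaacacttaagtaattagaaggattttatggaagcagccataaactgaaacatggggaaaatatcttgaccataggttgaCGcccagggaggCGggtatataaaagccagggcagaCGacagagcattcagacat
The Krt7 sequence holds 16 CpG and that of Krt18 holds 12. Those of Krt8, Krt10, Krt5, Krt31 and Krtap3-1 hold 3, 2, 2, 1 and 4. The median over the 17187 genes outside the family that have an entry was 10.

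Most members had no peak. A peak was assigned to a gene when its summit, the position of highest signal, lay in the gene or within 1 kb of its ends. By that rule 16 of 109 members carried Mta2 (14.7%), 16 carried Mbd3 (14.7%) and 18 carried Zbtb7a (16.5%), whereas the Mta2, Mbd3 and Zbtb7a shares over all 21631 protein-coding genes were 77.7%, 76.5% and 76%. All 3 factors had a summit at 14 members (12.8%, against 74.7% of all protein-coding genes), and no factor had one at 90 members (82.6%, against 21.2% of all protein-coding genes). A further 5 of the 109 members had a summit of 1 or 2 factors, a share similar to the 888 of all 21631 protein-coding genes.

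The simple epithelial keratins were near the shares of all protein-coding genes, and the skin and hair members far below them. Mta2 and Zbtb7a had a summit at all 4 of Krt7, Krt8, Krt18 and Krt19, and Mbd3 had one at Krt7, Krt8 and Krt18. All 3 factors were at 3 of 4 (75%), against 74.7% of all protein-coding genes. Of the 101 skin and hair members, 9 carried Mta2 (8.91%), 10 carried Mbd3 (9.90%) and 11 carried Zbtb7a (10.9%). Without the Krtap genes these counts were 8, 10 and 11 of 45. The remaining keratins Krt20, Krt23, Krt80 and Krt222, which fit neither set, carried all 3 factors at 3 of 4 genes, again 75%, with Krt20 as the exception. With 4 simple epithelial genes, 3 of them in the type II cluster, the contrast describes these genes and is not a test of the classes.

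**Figure D1:**
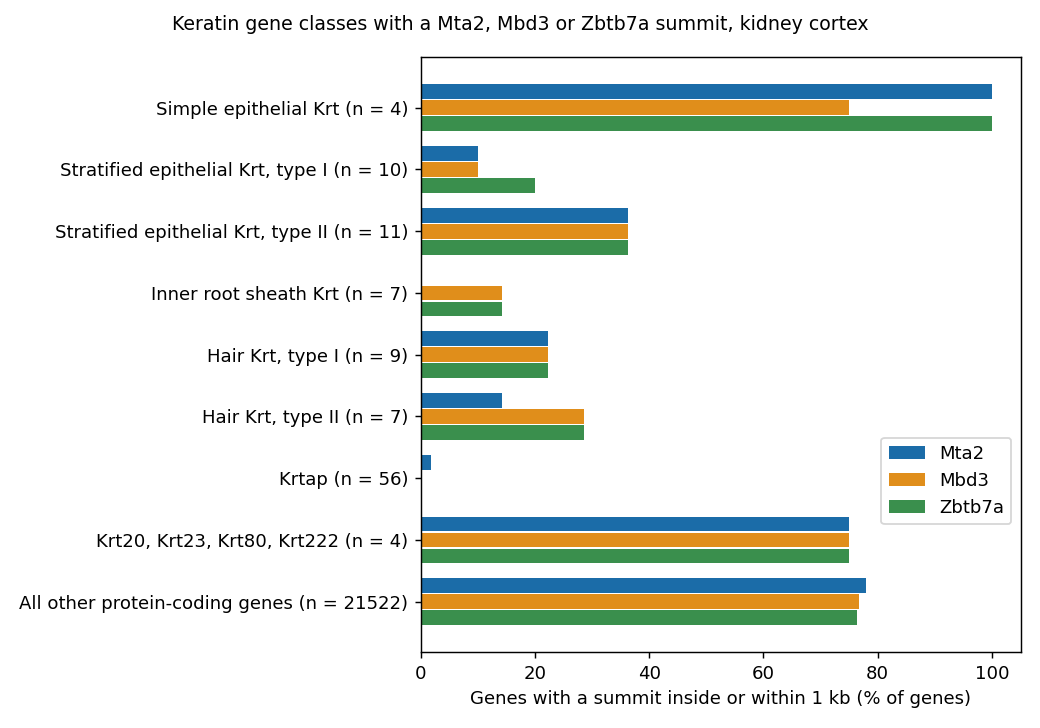
Share of genes (x axis, % of genes) with a Mta2, Mbd3 or Zbtb7a summit inside the gene or within 1 kb of it, for each keratin class and, in the bottom row, for the 21522 protein-coding genes outside the family. The simple epithelial keratins reach 75% to 100% and Krtap genes stay at or below 1.79%, and Krt88, which stands outside these classes and has no summit, is not drawn.

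Gene length differed between some classes, and a longer gene has more room for a summit. Whether length accounts for the counts was not tested. The median length was 6374.5 bp for the simple epithelial keratins and 6506 bp for the skin and hair keratins without Krtap. Krtap genes were 304 to 1891 bp long, with a median of 833 bp, and 1 of 56 had a summit of Mta2 and none of Mbd3 or Zbtb7a. Among 2385 genes outside the family of at most 2000 bp, 21.6% had a Mta2 summit, 20.8% a Mbd3 summit and 20.5% a Zbtb7a summit. Among the 30 members longer than 5000 bp and up to 10000 bp, 5 had a Mta2 summit, 6 a Mbd3 summit and 8 a Zbtb7a summit, whereas 75.4%, 73.8% and 73.2% of 2862 other genes in that range did so. Of the 9 members longer than 10000 bp and up to 20000 bp, 6 carried each factor (66.7%), against 83.9% for Mta2, 82.7% for Mbd3 and 82.0% for Zbtb7a among other genes. The 2 members longer than 20000 bp carried all 3 factors, against 90.4% of 9973 other genes. Whether reads map uniquely to the near-identical Krtap genes was not examined.

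Among the simple epithelial keratins, Krt8 and Krt7 had the strong peaks. Each value is a fold enrichment over background at the summit, computed by the authors' peak caller, and is placed within its own list by a percentile of all peaks. At Krt8, the type II partner of Krt18, the fold was 20.3 for Mta2 (91.8th percentile), 18.3 for Mbd3 (90.7th) and 26.3 for Zbtb7a (95.0th). The peaks were broad, 2084, 1990 and 2006 bp, and extended over the start site, while the summits lay 1164, 1146 and 1073 bp downstream of it, inside the gene (chr15:102002703-102004786 for Mta2). A weak Mta2 peak of fold 2.19 also lay beyond the gene's far end, 8555 bp downstream of its start site.

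Krt7, a type II keratin of ducts and of the urothelium, carried its strongest peak on its promoter. The summits lay 30 bp upstream of the start site for Mta2 and Zbtb7a and 24 bp upstream for Mbd3, within the CpG-rich sequence shown above. The folds there were 13.1 for Mta2 (81.7th percentile), 19.7 for Mbd3 (92.0th) and 20.2 for Zbtb7a (91.3rd). Inside the first 5 kb of the gene 3 further summits of each factor followed, with folds of 2.57 to 6.15 for Mta2, 2.93 to 7.35 for Mbd3 and 3.63 to 5.78 for Zbtb7a. Mbd3 had 1 more summit deeper in the gene, at fold 2.52, that overlapped no peak of the other factors.

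Krt18, the type I partner of Krt8, carried weaker peaks than Krt8. Its summits lay 48, 69 and 74 bp upstream of the start site for Mta2, Mbd3 and Zbtb7a. The folds were 4.43 for Mta2 (41.5th percentile), 3.89 for Mbd3 (35.8th) and 6.25 for Zbtb7a (60.1st). Within this pair of filament partners, the Mta2 and Mbd3 peaks of Krt18 ranked below the median of their lists and the strongest of Krt8 at the 90.7th percentile or above. The Krt18 promoter held 12 CpG and that of Krt8 held 3.

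Krt19, a small type I keratin of ducts and the only one of these genes on chromosome 11, had the weakest peaks. The Mta2 fold was 3.44 (26.7th percentile) and the Zbtb7a fold 3.78 (34.7th), and no Mbd3 peak was listed. Both summits lay inside the gene, 588 and 611 bp from its upper end. A distal interval 18638 bp from the gene (Mta2 summit) carried folds of 10.8 for Mta2, 11.1 for Mbd3 and 6.89 for Zbtb7a.

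**Figure D2:**
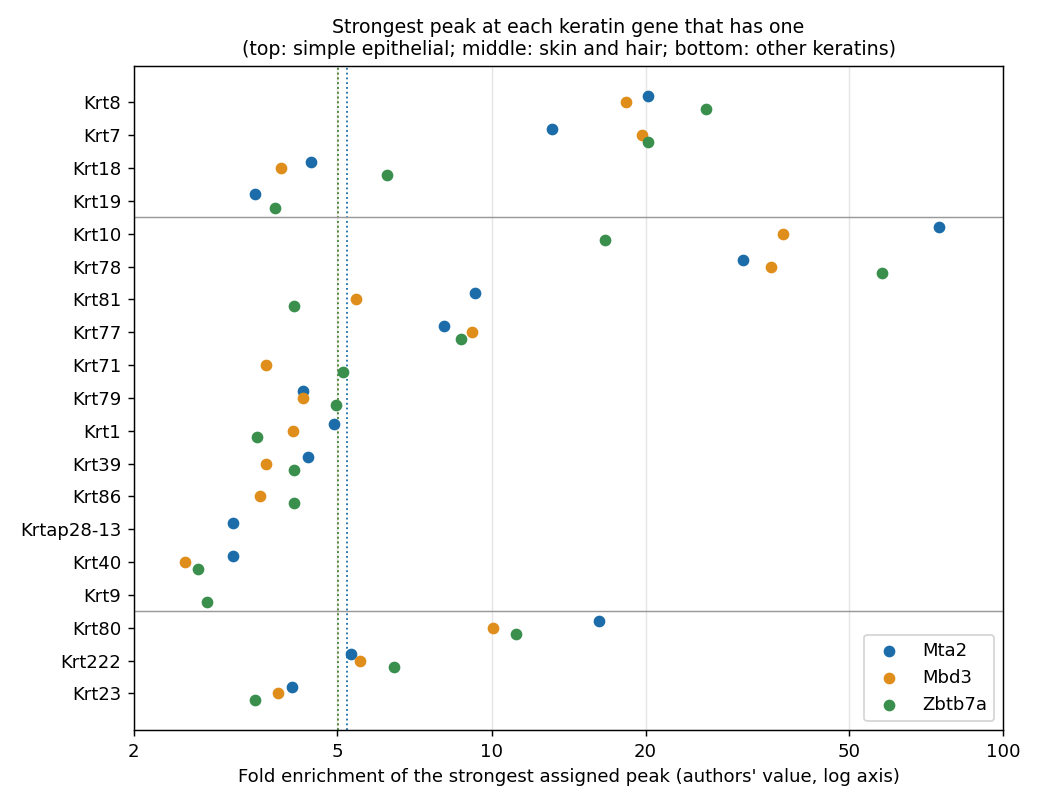
Fold enrichment of the strongest assigned peak (x axis, log scale, authors' value) at each of the 19 members that have one, with 1 point per factor and dotted lines at the median fold of each list. Krt8 and Krt7 lie right of the medians, the Zbtb7a point of Krt18 does so too (6.25), the other points of Krt18 and those of Krt19 lie left, and the highest points belong to Krt10 and Krt78.

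The highest folds in the family were not at the simple epithelial keratins. Krt10, a type I keratin of the upper epidermis, carried a Mta2 peak of fold 74.8, at the 99.99th percentile of the Mta2 list (chr11:99385719-99386798). The same place had a Mbd3 fold of 37.1 (98.9th percentile) and a Zbtb7a fold of 16.6 (87.8th). Its summits lay 3265 to 3277 bp downstream of the start site and 833 to 845 bp from the gene's lower end. A second peak of all 3 factors lay 480 to 493 bp downstream of the start site, with folds of 9.21 for Mta2, 8.80 for Mbd3 and 11.2 for Zbtb7a. The promoter of Krt10 held 2 CpG.

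Krt78, a type II keratin of stratified epithelium, held 9 Mta2, 7 Mbd3 and 7 Zbtb7a summits, but none near its own start site. RefSeq gives the gene a span of 50624 bp that almost reaches Krt8, whereas the start site of the promoter table lies in the lower part of that span. All of these summits lay between that start site and Krt8, and the nearest was 12681 bp upstream of the Krt78 start site. The strongest had folds of 31.0 for Mta2 (97.7th percentile), 35.2 for Mbd3 (98.7th) and 57.9 for Zbtb7a (99.7th), the last being the highest Zbtb7a fold at any member. It was followed, towards Krt8, by a peak with folds of 22.1, 22.5 and 27.8 in the same order. All lie inside the RefSeq span of Krt78, and whether they belong to Krt78 or to Krt8 was not tested.

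The other skin and hair members with a peak had lower folds. Krt77, a type II keratin known in humans from sweat ducts, had folds of 8.07 for Mta2, 9.16 for Mbd3 and 8.72 for Zbtb7a, about 9.7 kb downstream of its start site. The hair keratin gene Krt81 had folds of 9.28, 5.44 and 4.11 in that order, at summits 472 to 515 bp outside its lower end. Krt79, Krt1, Krt39 and Krt40 carried all 3 factors with folds between 2.52 at Krt40 for Mbd3 and 4.97 at Krt79 for Zbtb7a. At the hair keratin gene Krt39 the summits lay 285 to 343 bp upstream of the start site, and at Krt1, the epidermal partner of Krt10, 687 to 717 bp inside the lower end. In these 6 genes the 3 factors lay at overlapping intervals.

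A further 4 skin and hair members had some of the factors. Krt71, an inner root sheath keratin, and the hair keratin gene Krt86 carried Mbd3 (folds 3.63 and 3.52) and Zbtb7a (folds 5.12 and 4.11) and no Mta2. Krt9, a keratin of footpad epidermis, had a Zbtb7a summit of fold 2.78 at 982 bp from the gene, while the overlapping Mta2 and Mbd3 peaks had their summits beyond 1 kb. Krtap28-13, the 1 Krtap gene with a peak, had a Mta2 fold of 3.13 at 95 bp upstream of its start site. These peaks were in the weaker part of their lists except that of Zbtb7a at Krt71, at the 51.6th percentile.

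Among the keratins outside both sets, Krt80, a type II keratin found in many epithelia, had the strongest peaks. Its Mta2, Mbd3 and Zbtb7a folds 391 to 487 bp outside the upper end were 16.2, 9.47 and 11.2, and a second site inside the gene, 73 to 131 bp from the start site of the long noncoding gene Gm35853, had folds of 6.15, 10.1 and 8.90. Weaker summits of Mta2 (fold 2.85) and Zbtb7a (2.89) also lay in Krt80. Krt222, a keratin-like gene, had folds of 5.32, 5.54 and 6.45 at 18 to 57 bp from its upper end. Krt23 had folds of 4.07, 3.83 and 3.45 inside the gene and a Zbtb7a peak of fold 2.18 at 37 bp upstream of its start site. Krt20, a keratin of intestinal and urothelial cells, had no summit by the rule but stood 3226 to 3243 bp from a site with folds of 17.6, 15.7 and 10.9.

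Peaks of the 3 factors at members mostly overlapped, as they did over the whole lists. Of 31 distinct Mta2 peaks at members, 27 overlapped a Mbd3 peak and 27 a Zbtb7a peak (87.1% each), against 80.5% and 72.4% of all Mta2 peaks. Of 29 Mbd3 peaks, 26 overlapped Mta2 (89.7%) and 27 Zbtb7a (93.1%), against 92.8% and 80.6% of all Mbd3 peaks. Of 32 Zbtb7a peaks, 28 overlapped Mta2 (87.5%) and 29 Mbd3 (90.6%), against 92% and 88.8% of all Zbtb7a peaks. The median fold of these peaks was close to that of each whole list, 4.93 against 5.21 for Mta2, 5.44 against 5.02 for Mbd3 and 5.32 against 5.00 for Zbtb7a.

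Summit density differed along the keratin clusters. The type II cluster on chromosome 15 spans 684 kb and holds 26 members, and simple epithelial keratins stand at both of its ends, Krt7 beside Krt80 at one and Krt8 with Krt18 at the other. For Mta2, the stretch from Krt80 to Krt7 had 21.4 summits per 100 kb and that from Krt78 to Krt18 had 17.4, while the 509 kb between, from Krt87 to Krt79 with 21 skin and hair keratins, had 3.54. For Mbd3 these densities were 20.1, 15.1 and 3.54, and for Zbtb7a 16.4, 17.4 and 3.54. Over autosomes and X the densities were 5.83 for Mta2, 5.23 for Mbd3 and 4.85 for Zbtb7a. Of the 15 Mta2 summits from Krt78 to Krt18, 9 lay in the span of the stratified keratin gene Krt78. By the 1 kb rule Krt8 had 2, of which 1 was shared with Krt78, and Krt18 had 1. Of the 17 Mta2 summits from Krt80 to Krt7, 4 were at Krt7 and 3 at Krt80. The stretches were divided after the values were seen.

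The ends of this cluster also face genes with peaks outside the family. Eif4b, a translation initiation factor gene 41747 bp beyond Krt18, had highest folds of 49.7, 43.9 and 38.6 for Mta2, Mbd3 and Zbtb7a. On the Krt80 side the nearest gene, Smim41, had no summit, and Atg101, an autophagy gene 57368 bp away, had folds of 11.5, 14.8 and 11.6. Whether the density at the ends belongs to the simple keratins or to their neighbours was not tested. Within the cluster, 27 of 50 Mta2, 24 of 47 Mbd3 and 24 of 47 Zbtb7a summits lay over 1 kb from every member. They include a site 1413 to 1491 bp before Krt7, with folds of 9.80, 20.3 and 11.9, and one 9985 to 10015 bp before Krt18, with folds of 18.0, 16.4 and 16.4.

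**Figure D3:**
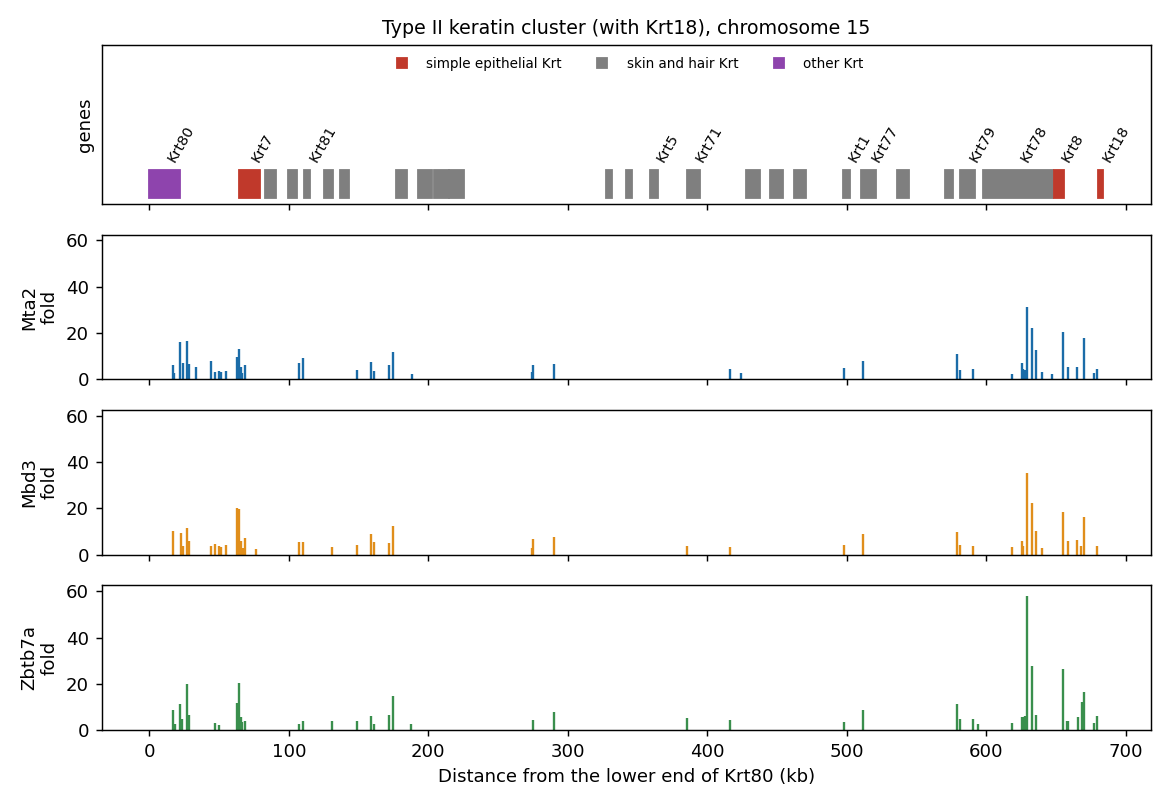
Genes and summits along the chromosome 15 cluster (x axis, kb from the lower end of Krt80), with the height of each line giving the authors' fold for Mta2, Mbd3 and Zbtb7a. Lines crowd at Krt80 and Krt7 on the left and from Krt78 to Krt18 on the right, up to a Zbtb7a fold of 57.9, and are sparse between.

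The type I cluster on chromosome 11 was sparser. It spans 1037 kb, with 50 Krt and Krtap members from Krt222 to Krt42, and held 27 Mta2, 21 Mbd3 and 24 Zbtb7a summits. Whereas the type II cluster had 7.31, 6.87 and 6.87 per 100 kb in that order, the type I cluster had 2.60, 2.02 and 2.31. Its middle, from Krtap3-3 to Krt15 with 32 Krtap, hair and stratified keratin genes over 586 kb, had 0.854 per 100 kb for each factor. The stretch from Krt222 to Krt40 had 4.51 for Mta2, 3.54 for Mbd3 and 3.87 for Zbtb7a. That from Krt19 to Krt42 had 6.19, 3.87 and 5.42, beside 5.83, 5.23 and 4.85 over autosomes and X. These stretches too were divided after the values were seen. A stretch of 246 kb, with the 15 members from Krtap31-1 to Krt15, held no summit of any list. Of 404128 gaps between neighbouring summits of the 3 lists on autosomes and X (median 67 bp), 1188 were at least as long. The 3 lists were pooled for these gaps, so many lie between summits of different factors at 1 shared site. Their median and number are therefore no measure of the spacing between sites. Krt19 lies at the edge of this stretch, and the upper of its bounding summits is the Zbtb7a summit of Krt19. Between Krt20 and Krt23, over 1 kb from both, a site 16812 to 16829 bp from Krt20 had folds of 31.2, 32.5 and 37.9 for Mta2, Mbd3 and Zbtb7a, and one 16016 to 16048 bp from Krt23 had folds of 27.3, 31.0 and 31.9. Beyond the cluster, Smarce1, a chromatin remodelling subunit gene 1744 bp from Krt222, had highest folds of 19.6, 25.9 and 19.2, and Eif1, a translation initiation factor gene 49998 bp from Krt42, had 16.3, 10.7 and 15.4.

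**Figure D4:**
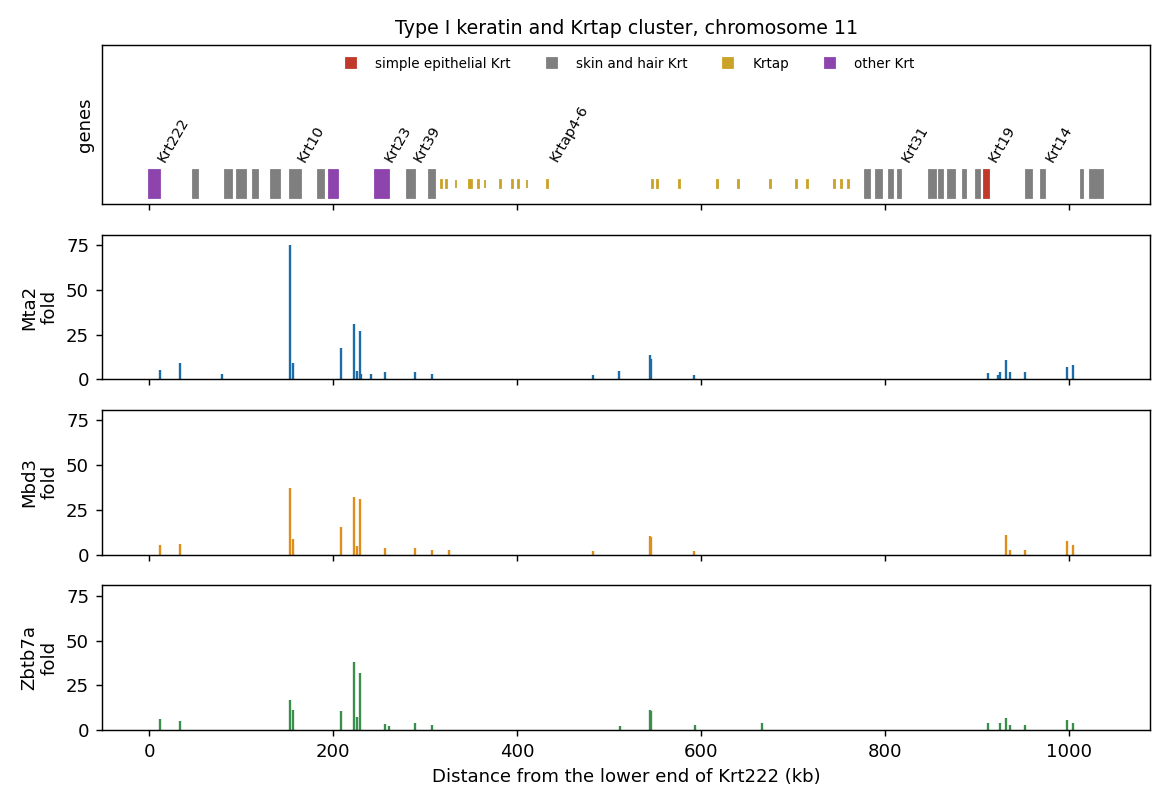
Genes and summits along the chromosome 11 cluster (x axis, kb from the lower end of Krt222), with the height of each line giving the authors' fold for Mta2, Mbd3 and Zbtb7a. The highest line is the Mta2 peak of Krt10 at fold 74.8, and the Krtap and hair keratin stretch in the middle holds few lines.

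The Krtap clusters without Krt genes had no summit at any member. That on chromosome 16 spans 960 kb, and its 24 members, among them the Krtap6 and Krtap19 genes of glycine- and tyrosine-rich proteins, lay in a region with 1.25 Mta2, 1.25 Mbd3 and 0.833 Zbtb7a summits per 100 kb. The same span holds 34 protein-coding genes outside the family, and the spans on chromosomes 11, 7 and 10 hold 15, 5 and 13. A stretch of 295 kb from Krtap19-1 to Krtap6-3 with 11 members and 9 other protein-coding genes held no summit. Of the 404128 gaps between neighbouring summits of the pooled lists on autosomes and X, many of them within 1 shared site, 877 were at least that long. The region is not empty throughout: a site 15.2 kb from Krtap26-1 had folds of 25.6, 28.5 and 15.9 for Mta2, Mbd3 and Zbtb7a. The 5 Krtap5 genes on chromosome 7 and the 3 Krtap10 and Krtap12 genes on chromosome 10 also had no summit. The tight junction gene Cldn8, 47526 bp below the chromosome 16 cluster and expressed in the distal nephron, had folds of 8.24, 14.5 and 6.12. On its other side Tiam1, a Rac activator gene 215928 bp away, had 11.4, 9.32 and 8.04. Next to the chromosome 7 genes Gm4553 had no summit and Ifitm10 had folds of 30.9, 22.3 and 12.2, and next to those of chromosome 10 neither Gm10142 nor Gm36176 had a summit.

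The 90 members without a summit were 55 Krtap genes (Krtap1-3 to Krtap31-2 in name order), 8 type I stratified keratins (Krt12 to Krt42), 7 type II stratified keratins (Krt2 to Krt76), 7 type I hair keratins (Krt31 to Krt36), 6 inner root sheath keratins (Krt25 to Krt73), 5 type II hair keratins (Krt82 to Krt90), Krt20 and Krt88. They differed in how far they were from a summit. The nearest Mta2 summit was 1.40 to 214 kb away, with a median of 27.1 kb. Of the keratin classes, type I hair keratins such as Krt31 were farthest, with a median of 94.8 kb for Mta2, 114 kb for Mbd3 and 94.8 kb for Zbtb7a over 7 genes, while the 5 type II hair keratins had a median of 5.87, 6.62 and 5.65 kb. Krt14, the type I keratin of basal epidermis, was 17.4 kb from a summit of each factor. Its type II partner Krt5 was 52.0 kb from the nearest Mta2 summit and 20.8 and 20.7 kb from those of Mbd3 and Zbtb7a.

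Promoters of simple epithelial keratins reached higher CpG counts than those of skin and hair genes, but Krt8 did not. Of 87 members with an entry, the 3 simple epithelial genes held 16 (Krt7), 12 (Krt18) and 3 CpG (Krt8) in the 250 bases before the start site, and the 82 skin and hair genes held 0 to 9, with a median of 2. The TATA motif TATAAA, searched on both strands, was in none of the 3 simple epithelial promoters, in 57 of 82 skin and hair promoters (69.5%) and in 12.2% of the promoters of genes outside the family. It was in 41 of 51 Krtap promoters (80.4%) and in 7 of 7 inner root sheath promoters. The GC box GGGCGG, searched on both strands and itself holding a CpG, was in the promoter of Krt7 and in 1 of 82 skin and hair promoters, against 43.4% of promoters outside the family.

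**Figure D5:**
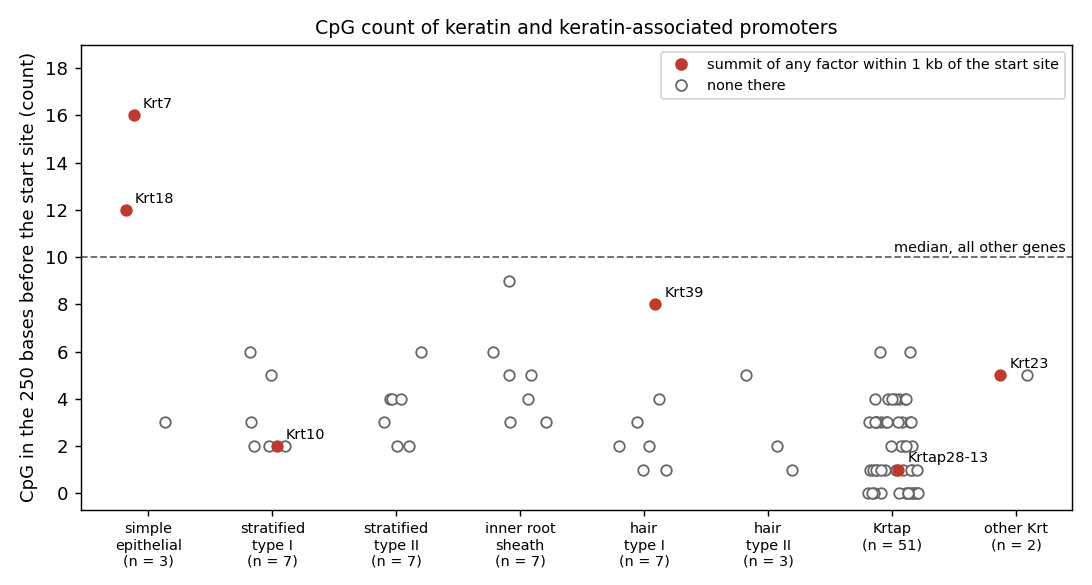
Number of CpG in the 250 bases before the start site (y axis, count) for the 87 members with a RefSeq promoter entry, by class, with filled points for genes that have a summit of any factor within 1 kb of the start site and a dashed line at the median of genes outside the family, 10. Krt7 and Krt18 are the 2 points above the line.

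A narrower rule, chosen after the data were seen, took the start site itself. Within 1 kb of it, 5 of 87 members had a Mta2 summit (5.75%), 4 a Mbd3 summit and 5 a Zbtb7a summit, whereas the shares over 17274 protein-coding genes with an entry were 67.8%, 66.5% and 66.5%. These members were Krt7, Krt18, Krt10 and Krt39 for all 3 factors, with Krtap28-13 for Mta2 and Krt23 for Zbtb7a. Krt8 dropped out because its summits lay 1073 to 1164 bp from the start site, although its peaks extended over it. Among members with 0 to 2 CpG, 2 of 42 had a Mta2 summit there (4.76%), against 16.1% of 3947 genes outside the family with as few. Among members with 3 to 5 CpG, 0 of 36 had one, against 43.1% of 2410 other genes. The members with 6 to 10 CpG had one at 1 of 7, against 74.2% of 2468 other genes. Above that, Krt18 (11 to 15 CpG) and Krt7 (16 to 25 CpG), the 1 member in each range, both had one, against 91.2% and 95.6% of other genes. With 3 to 5 CpG, Zbtb7a had a summit at 1 of 36 members, against 41.4% of other genes. Gene expression was not measured in these files, so the share of each set that the cortex expresses is not known from them.

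Other rules for a peak changed some counts of members. With a fold of at least 5, 8 members carried Mta2, 8 Mbd3, 9 Zbtb7a and 7 all 3, against 71.5%, 69.1%, 68.2% and 66.4% of all protein-coding genes. Krt7 and Krt8 were the 2 simple epithelial keratins that kept Mta2 under that rule. With a window of 3 kb, 14 skin and hair members carried Mta2 and 17 Mbd3, against 79.5% and 78.4% of all protein-coding genes. With summits inside genes alone, 7 skin and hair members carried Zbtb7a, against 65.8% of all protein-coding genes. With a −log10 q of at least 10, 6 carried Mbd3, against 72.8%. With summits within 1 kb of a gene's ends alone, 9 members carried all 3 factors, against 62.5%.

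Desmosome and plakin linker genes, some of whose products join keratin filaments to the cell surface, mostly carried the factors, as most protein-coding genes did. Of 22 such genes, 20 carried Mta2 (90.9%), 18 Mbd3 and 18 Zbtb7a (81.8% each), against 77.7%, 76.5% and 76% of all protein-coding genes. Most of the 22 are longer than 20000 bp. Among 9973 genes of that length outside the family the shares were 92.9%, 91.9% and 91.3%. The highest Mta2 folds were 38.4 at Jup, the plakoglobin gene, 32.0 at Pkp4, a plakophilin of cell junctions, and 31.5 at Evpl, the envoplakin gene. Among the desmosomal cadherin genes, Dsg1c and Dsg3 had no summit. Dsg1a, Dsg1b, Dsg2, Dsg4 and Dsc2 carried all 3 factors, with highest Mta2 folds from 5.11 at Dsg4 to 13.2 at Dsg2. Dsc1 carried Mta2 and Mbd3, and Dsc3 carried Mta2 alone. All 15 other intermediate filament genes carried Mta2 and Mbd3 and 14 carried Zbtb7a, which had none at Nefl, a neurofilament gene. Their highest Mta2 folds were 48.3 at the lamin gene Lmnb1, 37.7 at Synm, the synemin gene, and 35.9 at Bfsp2, a lens filament gene.

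Lists of other epithelial genes differed in their counts. All 13 tight and adherens junction genes of simple epithelium carried the 3 factors, with Mta2 folds of 46.8 at the kidney cadherin gene Cdh16 and 29.6 at Tjp1, a tight junction scaffold gene. All 12 epithelial regulator genes did so too, including the epidermal master regulator Trp63 with a Mta2 fold of 33.9, and the highest folds were 53.8 at Ovol2 and 38.0 at Klf4. Of 20 cornified envelope genes, 9 carried Mta2, 9 Mbd3 (45% each) and 11 Zbtb7a (55%). Tchhl1 (Mta2 fold 28.5), Cdsn (27.3) and Tgm3 (16.8), the gene of a transglutaminase, led them, and Casp14 and Ivl, the involucrin gene, were among the 9 without a summit. These shares stand beside 77.7% for Mta2, 76.5% for Mbd3 and 76% for Zbtb7a over all protein-coding genes, and the lists differ in gene length.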

How the data were processed

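Mta2, Mbd3 and Zbtb7a were each mapped in kidney cortex of 2 mice, with Input chromatin. Crosslinking used 1% formaldehyde and 2 mM disuccinimidyl glutarate and fragments measured 100 to 1000 bp, per the labels' protocols. Bowtie2, deepTools, MACS2, bedtools and mm10 were used, per the submitters' processing notes; versions, settings and the handling of Input and of the 2 mice were not given in the sources used here. Each of the 3 deposited lists gives the authors' fold enrichment at the summit, a ratio over background, the deposited −log10 q value, at least 1.30 in each list, and the summit's offset. Fold was compared within a list.

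Summits on autosomes and X were assigned to RefSeq (GRCm38.p6) genes with a window of 1 kb (Python 3.11.15, pandas 2.3.3), a step tested on simulated data. Densities are summits per 100 kb. Lines outside these chromosomes were left out. The members, classes and lists were chosen with earlier results of these data known, and Krt74 and Krt85 of the lists matched no protein-coding symbol of the gene table and were not analysed here. The named genes are the 4 simple keratins, every member with a summit, the flanking genes and, per list, the 3 highest Mta2 folds and up to 2 members without a summit; 1 gene that the rule names is not reported here. The following genes were named after their values were seen: Nefl, Atg101, Krt5, Krt14, Krt31, Krtap3-1, Dsg1a, Dsg1b, Dsg2, Dsg4, Dsc1, Dsc2, Dsc3 and the sites over 1 kb from a member.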

Additional observations from a re-analysis of the deposited data

How the results depend on the processing

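No paired analysis was possible because the replicates of each factor share 1 peak list, and for the same reason no replicate could be left out. Of 99 recomputed counts, 77 stayed within 1.5 times the reported count. With a fold of at least 5, members with a summit numbered 8 for Mta2, 8 for Mbd3, 9 for Zbtb7a and 7 for all 3 factors, with 2 simple keratins for Mta2 and 4 skin and hair members for each factor, while 71.5%, 69.1% and 68.2% of all protein-coding genes had a Mta2, Mbd3 and Zbtb7a summit. With summits within 1 kb of a start site, a setting chosen after seeing the data, they numbered 5, 4, 5 and 4. They included 2 simple keratins for Mta2 and for Zbtb7a and 3, 2 and 2 skin and hair members. Genes without a promoter entry count there as without a summit. By that count the Mta2, Mbd3 and Zbtb7a shares over all protein-coding genes were 54.1%, 53.1% and 53.1%. Skin and hair members numbered 14 for Mta2 and 17 for Mbd3 with windows of 3 kb, against 79.5% and 78.4% of all protein-coding genes. They numbered 7 for Zbtb7a with summits inside genes alone, against 65.8% of all protein-coding genes. For Mbd3 with a −log10 q of at least 10 they numbered 6, against 72.8%. Counting gene ends alone left 9 members with all 3 factors, against 62.5% of all protein-coding genes. Giving each summit to its nearest gene changed no count of members per factor. The absence of a peak is limited by the read depth, which was not analysed here.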
